A study of Mus musculus with 8 samples.

Results

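Retinoic acid is made from vitamin A inside cells that hold the right enzymes, and it acts in the nucleus. Retinol reaches the brain in the blood bound to the carrier RBP4 and can enter cells through the membrane receptor STRA6; RDH10 oxidises it to retinaldehyde, and the retinal dehydrogenases ALDH1A1, ALDH1A2 and ALDH1A3 oxidise retinaldehyde to retinoic acid. CRABP2 carries retinoic acid to its nuclear receptors, of which RARB is one, and CYP26B1 breaks retinoic acid down. In the mouse brain Aldh1a2 is best known from the meninges and Aldh1a1 from dopamine neurons. The 9 genes of this pathway described here were taken by symbol from the gene table, which lists 55401 genes, and each of the 9 symbols was found. Of the 9 genes, 8 had a mean of at least 0.5 FPKM (fragments per kilobase of gene, scaled to library size) and were tested for differences among 16894 genes, while Aldh1a3 stayed under that level.

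The RNA came from mouse hypothalami collected on postnatal day 19, 1 library per hypothalamus. Pups of the PLX3397 group (4 libraries, from 2 females named F1 and F2 and 2 males named M1 and M2) received this inhibitor of the receptor CSF1R, on which microglia depend, by gavage on postnatal days 9 to 15. Pups of the vehicle group (4 libraries with the same sex makeup and names) received vehicle by gavage over the same days. The labels give no strain or genetic change, the source field reads brain while the design text speaks of hypothalami, and nothing says that animals with the same name were littermates. The design text asks what microglia contribute to the development of the hypothalamus after birth.

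Csf1r had 6.44, 6.04, 5.04 and 1.23 CPM (counts per 1000000, scaled for library composition) in PLX3397 F1, F2, M1 and M2, against 76.4, 81.7, 80.3 and 85.7 CPM in vehicle F1, F2, M1 and M2. A list of 17 microglial markers summed to 41.7 to 76.2 CPM in PLX3397 libraries and to 399 to 419 CPM in vehicle libraries. Total counts ran from 55900335 to 67487391 in PLX3397 libraries and from 54115300 to 60001808 in vehicle libraries. Vehicle F1 stood apart by its pituitary RNA, with Gh at 2652 CPM and at most 0.866 CPM in any other library. Markers of hypothalamic neurons were present in every library. The 18 listed summed to 795 to 1180 CPM in PLX3397 and to 946 to 1803 CPM in vehicle libraries (946 to 1153 CPM without vehicle F1). Of the 18 markers 8 had a log2 fold change above 0, the median was -0.02, and 0 passed the test described below. Agrp, the first listed and a peptide of arcuate neurons, had 17.7 to 40.6 CPM in PLX3397 and 10.0 to 13.9 CPM in vehicle libraries. Its log2 fold change of 1.08 did not pass (edgeR adjusted p = 0.0699). Nothing in the sources says that the hypothalami were processed in separate batches, and with bulk RNA fewer cells of a type and less RNA per cell cannot be told apart.

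The promoters of 3 of the genes are shown: Aldh1a2 is the gene that passed the test, and Rarb and Cyp26b1, which did not pass it, are known to be induced by retinoic acid. Each window is from RefSeq, on the build GRCm38.p6, and runs from 250 bases before the annotated start to 50 after it, as read in the direction of the gene. The Aldh1a2 window is chr9:71215539-71215838 on the plus strand, that of Rarb chr14:16575427-16575726 on the minus strand and that of Cyp26b1 chr6:84593761-84594060 on the minus strand. Capitals mark the half-site AGGTCA and its variants AGTTCA, then GGTTCA, then GGGTCA, each searched on both strands, and the spacer between a pair of them that forms a direct repeat.
Aldh1a2: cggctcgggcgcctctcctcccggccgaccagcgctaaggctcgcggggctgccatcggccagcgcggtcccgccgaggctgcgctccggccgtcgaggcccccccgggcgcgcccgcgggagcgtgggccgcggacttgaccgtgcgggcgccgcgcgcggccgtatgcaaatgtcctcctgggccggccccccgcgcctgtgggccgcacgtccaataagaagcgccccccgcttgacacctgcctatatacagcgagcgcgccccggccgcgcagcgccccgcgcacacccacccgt
Rarb: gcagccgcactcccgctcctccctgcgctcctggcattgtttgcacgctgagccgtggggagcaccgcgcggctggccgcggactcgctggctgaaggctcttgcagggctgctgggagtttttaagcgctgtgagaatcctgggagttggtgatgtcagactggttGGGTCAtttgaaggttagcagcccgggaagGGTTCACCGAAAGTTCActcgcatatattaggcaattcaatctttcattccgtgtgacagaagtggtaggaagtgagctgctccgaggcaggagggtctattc
Cyp26b1: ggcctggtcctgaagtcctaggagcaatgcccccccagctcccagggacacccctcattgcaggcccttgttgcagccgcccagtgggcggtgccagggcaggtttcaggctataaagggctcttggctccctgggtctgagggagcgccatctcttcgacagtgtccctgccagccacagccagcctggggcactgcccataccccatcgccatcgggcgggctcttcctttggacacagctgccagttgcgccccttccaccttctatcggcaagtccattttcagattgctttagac
The Rarb window held 1 direct repeat with 5 bases between its half-sites, the spacing retinoic acid receptors are best known to bind, at bases 198 to 214 of the window, and a separate GGGTCA at bases 168 to 173. Such a repeat of any pair of the 4 half-sites occurred in 32 of the 32851 windows of the RefSeq table, or 0.0974%. Of the half-sites in this repeat, GGTTCA occurred in 10.4% of windows, alone or in a pair, and its partner AGTTCA in 14%. The windows printed for Aldh1a2 and Cyp26b1 held none of the half-sites, which says only that these letters are not in these 300 bases. Across the 11 windows available for 6 of the 9 genes, no other direct repeat with a spacer of 1, 2 or 5 bases was found. The 32 windows belong to 31 genes, 6 of which were tested for the effect of PLX3397: none passed, and their log2 fold changes had a median of 0.01, with Rarb the highest at 0.30.

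By FPKM, which allows levels of different genes to be compared, Aldh1a1 was the most abundant of the 9 genes, with a mean of 12.2 ± 3.0 FPKM over all 8 libraries (SD), above 77.4% of the tested genes. Aldh1a2 came next with 7.17 ± 1.54 FPKM and lay below Aldh1a1 in 8 of 8 libraries, although the ranges of both genes over the libraries overlapped. Rbp4 followed with 4.22 ± 0.602 FPKM, Crabp2 with 3.6 ± 0.644 FPKM and Rdh10 with 2.93 ± 0.281 FPKM, and the ranges of these 3 genes overlapped from each to the next. Cyp26b1 with 1.23 ± 0.419 FPKM, Rarb with 1.08 ± 0.136 FPKM and Stra6 with 0.756 ± 0.274 FPKM formed a further run of overlapping ranges. Aldh1a3 was lowest at 0.0843 ± 0.0225 FPKM. Breaks with no overlap lay between Aldh1a2 and Rbp4, between Rdh10 and Cyp26b1, and between Stra6 and Aldh1a3.

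**Figure D1:**
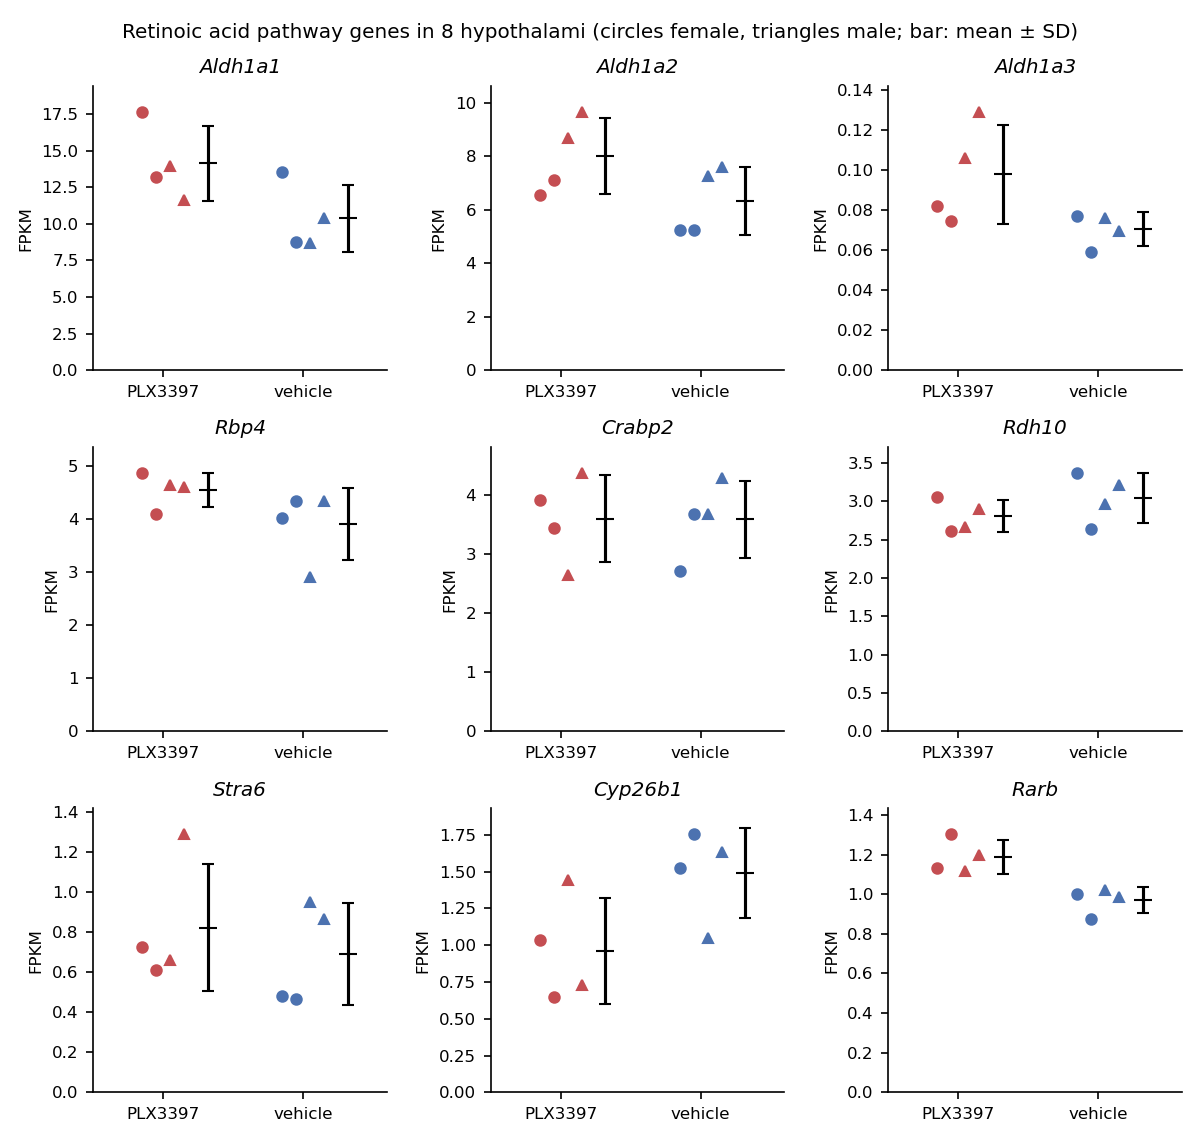
FPKM of the 9 genes in each library (y axis, linear from 0), PLX3397 left of vehicle; circles are females, triangles males, and the bar beside each group is its mean ± SD (n = 4). Rarb is the 1 tested gene whose PLX3397 libraries, at 1.12 to 1.30 FPKM, all lie above the vehicle libraries, at 0.875 to 1.02 FPKM.

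The comparison of PLX3397 with vehicle asked which genes differ between hypothalami of pups given the inhibitor and of pups given vehicle. Aldh1a2, 1 of the 8 tested genes, rose in PLX3397 hypothalami, by 1.27-fold. Aldh1a1 and Rarb, the retinoic acid receptor beta gene, were 1.37-fold and 1.23-fold higher without passing the test, and Cyp26b1 was 1.54-fold lower without passing it. Stra6, Rbp4, Crabp2 and Rdh10 had adjusted p from 0.512 to 0.976. Differences were tested with edgeR's quasi-likelihood F-test on counts with sex as a covariate, two-sided, adjusted over all 16894 genes by the Benjamini-Hochberg method with a threshold of 0.05. Among all tested genes 0.308% were called higher and 1.83% lower (2.14% in either direction). At an unadjusted p under 0.05 were 3 of the 8 genes (Aldh1a2, Aldh1a1 and Rarb), against 16.2% of all tested genes. The median log2 fold change of the 8 genes was 0.26, with 6 of 8 above 0, and that of all tested genes was -0.003.

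Of the retinal dehydrogenases, Aldh1a2 (chr9:71215789-71296243, plus strand) had 17.1, 18.6, 22.3 and 25.2 CPM in PLX3397 F1, F2, M1 and M2, against 13.4, 13.6, 18.8 and 19.8 CPM in vehicle F1, F2, M1 and M2. Both PLX3397 females lay above both vehicle females and both PLX3397 males above both vehicle males, while the groups as a whole overlapped, since vehicle males reached the level of PLX3397 females. Such a step up within both sexes was seen in 2 of the 8 tested genes (Aldh1a2 and Rarb) and in 7.53% of all tested genes. The log2 fold change was 0.35 ± 0.07 (SE; edgeR adjusted p = 0.0488), and the call lies close to the threshold. Leaving out any 1 of the 8 libraries ended the call, with adjusted p between 0.0657 and 0.143, while the log2 fold change stayed between 0.32 and 0.40. DESeq2 gave an adjusted p of 0.000803 for the same gene, and over 24 alternative analyses it passed in 7, with adjusted p from 0.000803 to 0.370. The value of 0.370 came from edgeR without sex as a covariate, where the log2 fold change was 0.34.

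Aldh1a1 (chr19:20492715-20643465, plus strand) had 100.8, 75.2, 78.3 and 66.1 CPM in PLX3397 F1, F2, M1 and M2, against 75.5, 49.7, 49.2 and 59.2 CPM in vehicle F1, F2, M1 and M2. F1 was the highest library in each group, and the groups overlapped only through vehicle F1. Its log2 fold change was 0.45 ± 0.15 (SE; edgeR adjusted p = 0.212). Slc6a3, the dopamine transporter gene and a marker of dopamine neurons, was also highest in both F1 libraries, with 37.9, 8.72, 14.6 and 21.8 CPM in PLX3397 F1, F2, M1 and M2, against 46.4, 5.0, 4.25 and 9.15 CPM in vehicle F1, F2, M1 and M2. A list of 10 dopamine neuron markers summed to 184 to 276 CPM in PLX3397 libraries and to 180 to 300 CPM in vehicle libraries, with 0 of its 6 tested genes called. Without vehicle F1, the library with pituitary RNA, the log2 fold change of Aldh1a1 was 0.58, and without PLX3397 F1 it was 0.35 (edgeR adjusted p = 0.155 and 0.364). Without both F1 libraries, a pair chosen after seeing the data, it was 0.48 (edgeR adjusted p = 0.141). In the 6 libraries other than F1, Slc6a3 had 8.72 to 21.8 CPM in PLX3397 and 4.25 to 9.15 CPM in vehicle libraries. These ranges overlapped, since PLX3397 F2 lay under vehicle M2. Th, the first marker on that list, had 24.6 to 35.2 CPM in PLX3397 and 33.5 to 35.6 CPM in vehicle libraries other than F1. Over all 8 libraries the log2 fold changes were 0.64 ± 0.78 for Slc6a3 and -0.13 ± 0.25 for Th (SE, edgeR adjusted p = 0.747 and 0.853). Of the 6 tested markers on the list, 3 were above 0. The part of dopamine neurons in the Aldh1a1 result was not tested. Aldh1a7, a gene close in sequence to Aldh1a1, averaged 1.05 ± 0.356 CPM in PLX3397 and 0.952 ± 0.565 CPM in vehicle libraries (SD, n = 4 each), and 1 of 4934 stretches of 100 bases of the Aldh1a1 transcripts also occurs in it.

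**Figure D2:**
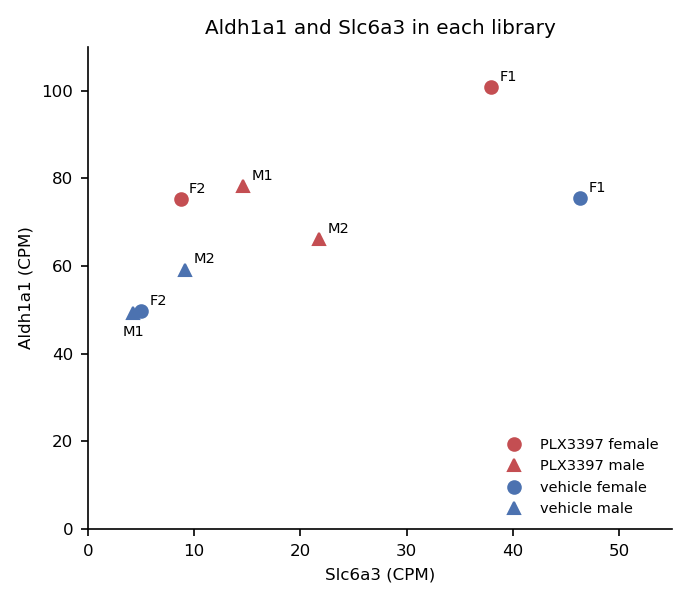
Aldh1a1 (y axis) against Slc6a3 (x axis), both in CPM, 1 point per library, PLX3397 in red and vehicle in blue, circles female and triangles male. Both F1 libraries lie at the right, at 37.9 and 46.4 CPM of Slc6a3, and the other PLX3397 libraries (66.1 to 78.3 CPM of Aldh1a1) lie above the other vehicle libraries (49.2 to 59.2 CPM).

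Aldh1a3 (chr7:66390890-66427517, minus strand) had 0.451, 0.406, 0.561 and 0.687 CPM in PLX3397 F1, F2, M1 and M2, against 0.410, 0.327, 0.408 and 0.385 CPM in vehicle F1, F2, M1 and M2. PLX3397 F2 lay just under the highest vehicle library, and the other 3 PLX3397 libraries lay above it. The groups differed by 0.44 on the log2 CPM scale (exact permutation test, two-sided p = 0.0857, 70 splits, smallest possible p 0.0286). Added up in FPKM, the 3 dehydrogenases came to 22.2 ± 1.66 FPKM in PLX3397 libraries and 16.8 ± 2.16 FPKM in vehicle libraries (SD, n = 4 each), with no overlap (20.4 to 24.3 and 14.1 to 18.9 FPKM); this sum was formed with the values of its parts known and was not tested. Aldh1a1 made up 63.3% of the sum in PLX3397 and 61.5% in vehicle libraries, Aldh1a2 36.3% and 38.1%.

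For uptake and delivery of retinol, Rbp4 (chr19:38116629-38125281, minus strand) had 7.58, 6.34, 7.07 and 7.12 CPM in PLX3397 F1, F2, M1 and M2, against 6.11, 6.70, 4.49 and 6.72 CPM in vehicle F1, F2, M1 and M2. Vehicle M1 was the lowest library and the groups overlapped (log2 fold change 0.23 ± 0.15, SE; edgeR adjusted p = 0.512). Stra6 (chr9:58063788-58153996, plus strand) had 4.95, 4.14, 4.40 and 8.64 CPM in PLX3397 F1, F2, M1 and M2, against 3.18, 3.15, 6.38 and 5.85 CPM in vehicle F1, F2, M1 and M2. PLX3397 M2 was the highest library, both PLX3397 females lay above both vehicle females, and the males overlapped (log2 fold change 0.30 ± 0.22, SE; edgeR adjusted p = 0.559). Stra6 shares 55036 bases with Ccdc33 on the other strand, which averaged 2.77 CPM in PLX3397 and 3.92 CPM in vehicle libraries, and reads of the 2 genes may not be told apart, since the sources used here do not give strand use.

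Rdh10 (chr1:16105774-16133734, plus strand), the retinol dehydrogenase, had 14.7, 12.5, 12.6 and 13.9 CPM in PLX3397 F1, F2, M1 and M2, against 15.8, 12.6, 14.1 and 15.4 CPM in vehicle F1, F2, M1 and M2. The groups overlapped, and both PLX3397 males lay below both vehicle males (log2 fold change -0.11 ± 0.10, SE; edgeR adjusted p = 0.661). Crabp2 (chr3:87948666-87953376, plus strand) had 6.0, 5.28, 4.01 and 6.67 CPM in PLX3397 F1, F2, M1 and M2, against 4.05, 5.60, 5.60 and 6.54 CPM in vehicle F1, F2, M1 and M2. Its groups covered almost the same range (log2 fold change 0.02 ± 0.20, SE; edgeR adjusted p = 0.976).

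Cyp26b1 (chr6:84571414-84593908, minus strand), the enzyme that breaks retinoic acid down, had 6.44, 4.01, 8.78 and 4.52 CPM in PLX3397 F1, F2, M1 and M2, against 9.20, 10.8, 6.47 and 10.1 CPM in vehicle F1, F2, M1 and M2. Both PLX3397 females lay below both vehicle females, and the males overlapped, since PLX3397 M1 was the highest of its group and vehicle M1 the lowest of its own. The log2 fold change was -0.62 ± 0.28 (SE; edgeR adjusted p = 0.335, unadjusted p = 0.0607), below 0 in 24 of 24 alternative analyses and called in none. The summed FPKM of the dehydrogenases divided by the FPKM of Cyp26b1 was 15.8 to 31.5 in PLX3397 libraries and 8.02 to 15.2 in vehicle libraries. This ratio was formed with its parts already seen to go in opposite directions, and it is a description with no test.

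Rarb (chr14:16430839-16575827, minus strand) had 6.95, 7.93, 6.71 and 7.30 CPM in PLX3397 F1, F2, M1 and M2, against 5.99, 5.31, 6.20 and 5.98 CPM in vehicle F1, F2, M1 and M2. All 4 PLX3397 libraries lay above all 4 vehicle libraries, which held for 1 of the 8 tested genes and for 4.85% of all tested genes (11.2% in either direction). The log2 fold change was 0.30 ± 0.10 (SE; edgeR adjusted p = 0.220, unadjusted p = 0.0225) and passed in 0 of 24 alternative analyses, with adjusted p from 0.129 to 0.463. Rarb shares 4624 bases with Top2b on the other strand, which averaged 100.1 ± 2.12 CPM in PLX3397 and 103.5 ± 3.74 CPM in vehicle libraries (SD, n = 4 each). Top2b itself had a log2 fold change of -0.05 (edgeR adjusted p = 0.588).

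**Figure D3:**
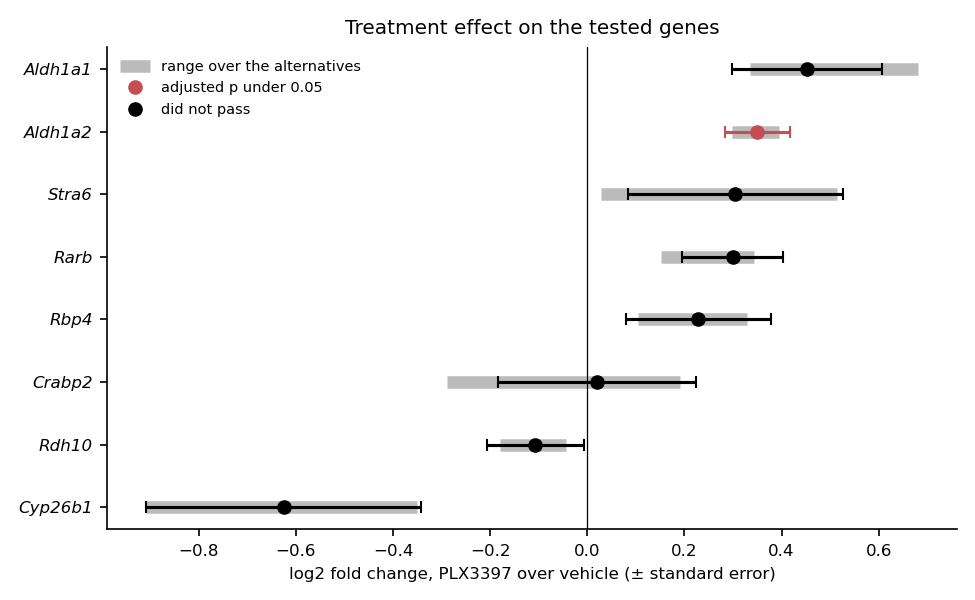
Log2 fold change of the 8 tested genes, PLX3397 over vehicle (x axis), with its standard error (thin bar) and the range over the alternative analyses (grey bar). Aldh1a2 at 0.35 (red) is the gene that passed; Aldh1a1 at 0.45 and Cyp26b1 at -0.62 lie farther from 0 with wider error bars, and the grey bar of Crabp2 crosses 0.

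Females were also set against males, with treatment as a covariate, since each group holds both sexes. With edgeR 0 of the 8 genes passed, where 0.0592% of all tested genes did; at an unadjusted p under 0.05 were Aldh1a2 and Stra6 (2 of 8, against 4.99% of all tested genes), limma on log2(FPKM + 0.5) called 0 genes and DESeq2 called 1. Aldh1a2 averaged 17.9 CPM in PLX3397 females against 23.7 CPM in PLX3397 males, and 13.5 CPM in vehicle females against 19.3 CPM in vehicle males. The log2 fold change of females over males was -0.46 ± 0.07 (SE; edgeR unadjusted p = 0.000179, adjusted p = 0.252), and DESeq2 gave an adjusted p of 1.9e-05. Both females lay below both males in PLX3397 and in vehicle libraries, a pattern found in 1 of the 8 tested genes and in 3.08% of all tested genes. For Stra6 the difference was -0.73 ± 0.22 (SE; edgeR unadjusted p = 0.0119, adjusted p = 0.933), with females below males in vehicle and overlapping in PLX3397.

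The PLX3397 effect on the 8 genes was then compared between the sexes. With edgeR the difference of the effects passed for 0 of the 8 genes, with 0.077% of all tested genes called, and 0 of the 8 were at an unadjusted p under 0.05, against 6.01% of all tested genes; DESeq2 and limma also called 0. The effect on Aldh1a2 was 0.10 ± 0.14 larger in females than in males on the log2 scale (SE; edgeR adjusted p = 0.935). Those of Cyp26b1 and Stra6 differed by -0.62 ± 0.55 and 0.43 ± 0.44, females minus males (SE; edgeR adjusted p = 0.901 and 0.915). With 2 libraries of each sex in a group, the standard errors of these differences ran from 0.14 for Aldh1a2 to 0.55 for Cyp26b1.

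Aldh1a2 is known from meningeal fibroblasts, and markers of that cell type went in both directions beside it. Of 27 meningeal fibroblast markers, all tested, 5 were called higher in PLX3397 and 0 lower, against 0.308% and 1.83% of all tested genes. The list was chosen with earlier results of these data known, so this share is a description and not a test. The 5 were the transporters Slc6a13 and Slc6a20a, the transcription factor Tbx18, and Itih2 and Itih5, which encode heavy chains of the inter-alpha-trypsin inhibitor. Their log2 fold changes ran from 0.63 to 1.13, 17 of the 27 were above 0 with a median of 0.09, and no marker was at 0. Slc6a13, named after its values were seen, had 28.0, 26.9, 40.2 and 41.8 CPM in PLX3397 F1, F2, M1 and M2, against 12.6, 17.5, 26.7 and 27.6 CPM in vehicle F1, F2, M1 and M2. Like Aldh1a2, it was lower in both females than in both males of each group (log2 fold change of females over males -0.71 ± 0.11, SE; edgeR adjusted p = 0.306). Among other markers of the list, the log2 fold changes of females over males were -0.18 ± 0.11 for Slc6a20a and -0.04 ± 0.20 for Dcn (SE; edgeR adjusted p = 0.933 and 0.993). Dcn and Lum, collagen-binding proteoglycans, were 0.87 and 1.17 higher on the log2 scale without passing (edgeR adjusted p = 0.0852 and 0.134). Going the other way without passing were Cldn11, a tight junction gene, at -1.25, Zic1, a transcription factor, at -0.65 and the collagen gene Col1a1 at -0.32 (edgeR adjusted p = 0.0794, 0.185 and 0.415). The 27 markers together summed to 1048 to 1259 CPM in PLX3397 libraries and to 1034 to 1424 CPM in vehicle libraries. Cldn11, which is also among the oligodendrocyte markers, averaged 125 CPM in PLX3397 and 300.0 CPM in vehicle libraries; without it and the other 2 markers found on another list, a selection made after seeing the data, the remaining 24 summed to 821 to 1063 CPM in PLX3397 and to 693 to 914 CPM in vehicle libraries. Both sums overlapped between the groups, and the part of these cells in the Aldh1a2 result was not tested.

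**Figure D4:**
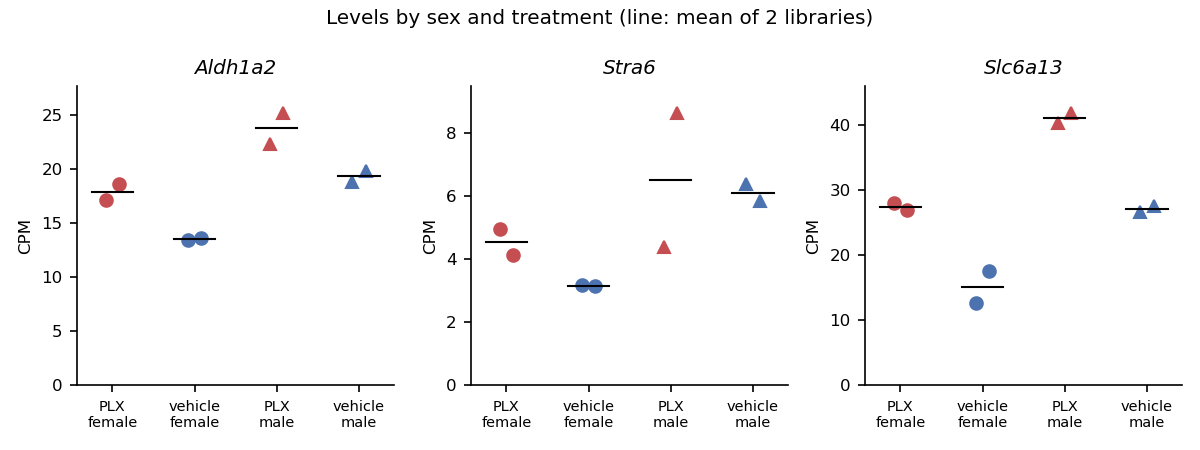
CPM of Aldh1a2, Stra6 and Slc6a13 (y axes, linear from 0) by sex and treatment, 1 point per library and a line at the mean of 2 libraries, PLX3397 left of vehicle within each sex. For Aldh1a2 the steps are 17.9 and 13.5 CPM in PLX3397 and vehicle females, and 23.7 and 19.3 CPM in PLX3397 and vehicle males. Slc6a13 too lies higher in PLX3397 than in vehicle within each sex, and lower in females than in males within each treatment.

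Beyond the 9 genes, 91 other genes of retinoid metabolism, transport and response were listed, of which 56 were tested: 0 were called higher and 1 lower, with a median log2 fold change of -0.03. Among all tested genes 0.308% were called higher and 1.83% lower, and 1 of 56 lies near the latter share. The gene called lower was Rlbp1, which encodes a carrier of retinal known from the eye. It had 2.84, 3.17, 3.55 and 2.75 CPM in PLX3397 F1, F2, M1 and M2, against 5.21, 5.02, 5.62 and 7.74 CPM in vehicle F1, F2, M1 and M2 (log2 fold change -0.93 ± 0.16, SE, edgeR adjusted p = 0.0347). The groups did not overlap, which held in either direction for 11.2% of all tested genes. Rlbp1 passed in 13 of 24 alternative analyses but in 0 of the 8 that left out 1 library. Beside it, 12 oligodendrocyte markers summed to 2269 to 5156 CPM in PLX3397 libraries and to 6600 to 10004 CPM in vehicle libraries. Of these markers 4 of 12 were called lower and 0 higher, against 1.83% and 0.308% of all tested genes, and no marker was at 0. This list too was chosen with earlier results of these data known, so its share is a description. The part of oligodendrocytes in the Rlbp1 result was not tested.

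Among 26 genes that oxidise or reduce retinol and retinal, the 3 dehydrogenases and Rdh10 included, 15 were tested, Aldh1a2 alone was called and the median log2 fold change was -0.10. The short-chain dehydrogenases Dhrs4 and Rdh5 had log2 fold changes of -0.35 and -0.34 (edgeR adjusted p = 0.161 and 0.307), and Dhrs3, which turns retinaldehyde back into retinol, -0.12 (0.675). Of 22 carriers and genes of uptake and storage, 13 were tested, with 0 called higher, 1 lower and a median of 0.02. The cellular carrier Crabp1 had a log2 fold change of 0.33 (edgeR adjusted p = 0.327), and Ttr, the partner of RBP4 in blood, -0.05 (0.964). Ces1d, a carboxylesterase, had 0.91 ± 0.42 (SE; edgeR adjusted p = 0.350). Lrat, which esterifies retinol for storage, fell under the level for testing, with 2.28 ± 0.742 CPM in PLX3397 and 1.58 ± 0.730 CPM in vehicle libraries (SD, n = 4 each).

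Of 5 genes of retinoic acid breakdown, Cyp26b1 included, 2 were tested and 0 called, with a median log2 fold change of -0.36. Cyp2s1, the other tested one, had -0.09 (edgeR adjusted p = 0.827). Cyp26a1 had 12 and 16 counts in PLX3397 F1 and F2 and 0 in both PLX3397 males and in every vehicle library, and Cyp26c1 had 0 in all 8. At these depths a 0 leaves room for 3 counts, which is 0.0451 to 0.0557 CPM in these libraries and covers counting error only. Of the 20 receptors and coregulators 19 were tested and none was called (median 0.01). Rara, Rarg, Rxra and Rxrb, receptors of retinoic acid and their partners, had log2 fold changes of 0.09, 0.04, 0.05 and -0.10. Rxrg, another such partner, had 0.23 ± 0.06 (SE; edgeR adjusted p = 0.128), and the nuclear receptors Nr2f1 and Ppard had -0.31 and -0.21 (0.255 and 0.333).

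Of 38 genes known to respond to retinoic acid 24 were tested, 0 were called in either direction and the median log2 fold change was 0.05. Rarb led them by p, and Tgm2, a transglutaminase, had a log2 fold change of 0.25 ± 0.11 (SE; edgeR adjusted p = 0.316). Rarb, Crabp2, Stra6 and Cyp26b1 themselves belong to this list, and of these 4 the log2 fold change was negative for Cyp26b1 and positive for the other 3, for Crabp2 by less than its standard error and with the sign turned in 8 of 24 alternative analyses.

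**Figure D5:**
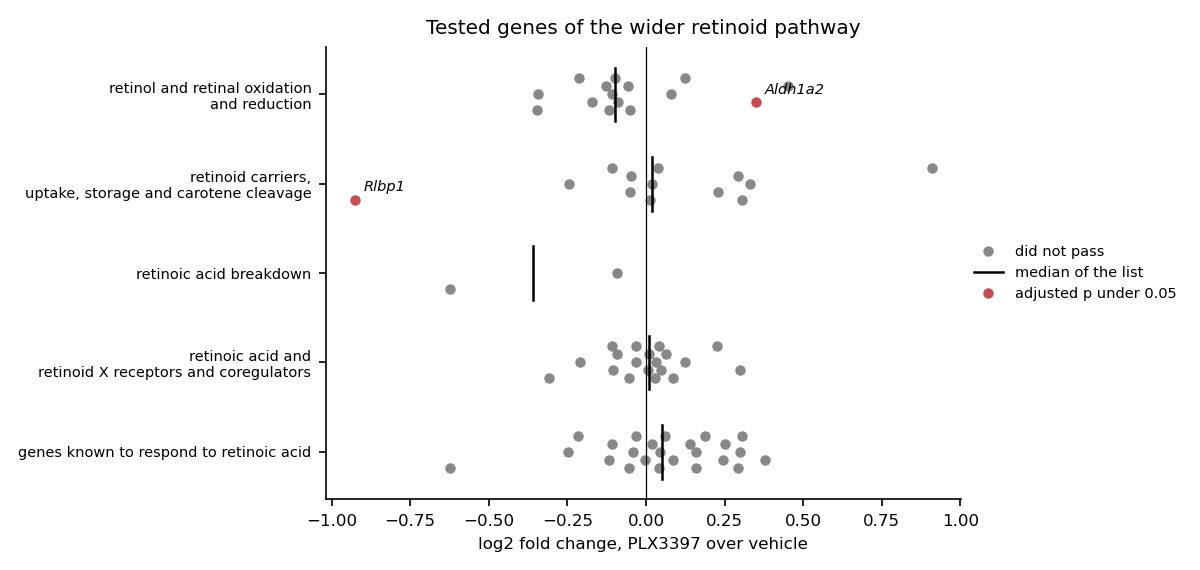
Log2 fold changes, PLX3397 over vehicle (x axis), of the tested genes in 5 lists of the retinoid pathway (rows), 1 point per gene, with a black line at the median of each list. The medians lie between -0.10 and 0.05, apart from -0.36 for breakdown, where 2 genes were tested; the 2 red points that passed are Aldh1a2 at 0.35 and Rlbp1 at -0.93.

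The other cell types that could carry these genes were followed by their markers. Tanycytes, the ventricle-lining cells in which Aldh1a1 is known from rats, and ependyma were followed by 23 markers, which summed to 550 to 605 CPM in PLX3397 libraries and to 544 to 620 CPM in vehicle libraries, with 0 called higher and 1 (Vcan) lower; Rax and Col23a1 had log2 fold changes of -0.02 and 0.17. The 17 choroid plexus markers, of which 9 were tested, summed to 168 to 219 CPM in PLX3397 and to 256 to 303 CPM in vehicle libraries, and the sum includes Enpp2, which oligodendrocytes also express, at 92.4 ± 20.9 CPM in PLX3397 and 192 ± 23.7 CPM in vehicle libraries (SD, n = 4 each), the 1 marker called lower. Astrocyte markers summed to 3663 to 3946 CPM in PLX3397 and 3406 to 4087 CPM in vehicle libraries, and endothelial markers to 361 to 399 CPM and 325 to 390 CPM. Of the 12 endothelial markers 1 (Flt1) was called higher and 0 lower, and of the 11 astrocyte markers 0 were called. Among all tested genes 0.308% were called higher and 1.83% lower. The part of these cell types in the values of the 9 genes was not tested.

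The genes most like each member over the 8 libraries were looked up in log2(CPM + 0.5), after the mean of each sex within each treatment was removed. Rnf215 was closest to Aldh1a2 (Pearson r = 0.999 across 8 libraries), Zc3hav1 to Aldh1a1 (0.999), Ints2 to Cyp26b1 (0.999) and Sesn1 to Rarb (0.997). They were picked as the highest of 16894 genes over so few libraries, so these values are a description and no test was made. Each sex within each treatment has 2 libraries, whose deviations from their mean are equal and opposite, so the 8 values are not independent.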

How the data were processed

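RNA of 8 hypothalami was depleted of ribosomal RNA, fragmented and reverse transcribed from random primers, per the labels' protocols. For every gene the authors' deposited table gives a whole-number count and, per the file headers, an FPKM value computed by the authors, with coordinates on mm10. Among the tools in the submitters' processing notes are HISAT2, StringTie and limma, beside bcl2fastq 2.0 and DESeq2, and the build is mm10; the sources used here do not give their roles, the counting tool or strand use. The precision of a count is limited by depth (54115300 to 67487391 counts per library). Reads of overlapping genes can be misassigned.

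CPM was computed as the count divided by the library's total over tested genes times its TMM factor. Genes with a mean of at least 0.5 FPKM (16894) were fitted with edgeR 4.0.16 (glmQLFit, glmQLFTest) in R 4.3.3 with sex, or treatment, as covariate; the difference between sexes used the 4 groups of sex and treatment. The test was checked on simulated counts with 200 changed genes. DESeq2 1.42.0 and limma 3.58.1 (log2(FPKM + 0.5)), other scalings, filters, covariates and left-out libraries were alternatives. Coordinates are those of the table, and shared stretches were searched in GENCODE vM21 transcripts. No library repeated another (chi-square per degree of freedom 40.7 to 68.5 within groups). The design text speaks of 8 hypothalami, so libraries were taken as separate animals. Genes named are all members, the pathway genes that passed and up to 4 of each list by smallest p, fixed receptors and metabolic genes, and the first 2 markers of lists; 1 gene that this rule names is not reported here. The members and lists were chosen with earlier results of these data known.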

Additional observations from a re-analysis of the deposited data

How the results depend on the processing

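Over the alternatives to each fold change of the tested members and of 10 further pathway genes, 737 of 800 values kept their direction and side of the threshold, 28 no longer passed, 2 newly passed and 33 changed sign. For PLX3397 against vehicle 362 genes passed, and 1097 did with DESeq2, 79 with the replicate block, 123 without vehicle F1 and PLX3397 M2, and 138 to 361 with 1 library left out (138 without vehicle M1, 146 without PLX3397 M1, 148 without PLX3397 F2, 157 without vehicle F2, 162 without vehicle M2 and 224 without PLX3397 M2). Of the members 1 passed, and 0 did with a minimum of 0.1 FPKM, filterByExpr, a total count above 0, the other dispersion setting of edgeR (legacy = FALSE), robust fitting, the replicate block, no covariate, either pair of libraries left out (vehicle F1 with PLX3397 M2, and both F1, the second chosen after seeing the data), and with any 1 library left out (0 to 0). The replicate block gave Aldh1a2 0.35 with an adjusted p of 0.124; samples with the same number correlated by -0.0335 to 0.0343 in their deviations from the group means, so the numbers were not taken as pairs.

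The difference between sexes passed for 13 genes, and for 1 with a minimum of 0.1 FPKM, 143 with DESeq2, 0 with the replicate block, 4 without both F1 libraries and 0 to 19 with 1 library left out (0 without PLX3397 F2, 2 without PLX3397 F1). Females against males gave 10 genes, 52 with DESeq2, 17 without both F1 libraries, and of the members 1 with DESeq2; it cannot be fitted with the block. Aldh1a3 has values only with filterByExpr or no filter on level.

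Signs turned in these cases. The treatment effect on Crabp2 was -0.0018, -0.0025 and -0.0013 with limma with -0.2883 without vehicle F1 and PLX3397 M2, -0.1528 without both F1 libraries, and -0.1041 to 0.1906 with 1 library left out. In females against males Aldh1a1 gave -0.0319 without both F1 libraries, Crabp2 0.1891 without vehicle F1 and PLX3397 M2, and Cyp26b1 0.0071, 0.0017 and 0.0085 with limma and 0.0283 with no covariate. With 1 library left out these differences were -0.2901 to 0.0046 for Crabp2, -0.2093 to 0.2541 for Cyp26b1, -0.0405 to 0.1812 for Rbp4, -0.065 to 0.0637 for Rdh10 and -0.0688 to 0.0432 for Rarb, and the difference between sexes was -0.1935 to 0.4056 for Aldh1a1, -0.5409 to 0.0341 for Rbp4 and -0.0622 to 0.2648 for Rdh10. The cause was not tested. Depth limits mainly Aldh1a3 and Cyp26a1.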
